A study of Rattus norvegicus with 12 samples.

Results

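The cytosolic ribosomal protein genes were examined in RNA-seq of neonatal rat ventricular myocytes (NRVMs), the heart muscle cells of newborn Sprague-Dawley rats grown in culture. Members were the entries of the count table whose symbol starts with Rpl or Rps and a digit, together with Rpsa, Rplp0, Rplp1 and Rplp2, leaving out pseudogene symbols and 10 kinase entries. This rule found 89 of 18469 genes. They comprised 31 proteins of the small subunit, 43 of the large subunit, the 3 stalk proteins, 8 paralogs, 3 further copies (of Rps19, Rps9 and Rps10) and Rps19bp1, which binds Rps19 and is not part of the ribosome. The 4 groups had 3 libraries each, namely siNeg (cells transfected with a negative control siRNA), siNeg PE (the same siRNA, then phenylephrine), siSlc25a26 (an siRNA against Slc25a26) and siSlc25a26 PE. PE, which stimulates α-adrenergic receptors and induces hypertrophic growth of cardiomyocytes, was added 12 h after transfection and left for 36 h. All groups were kept in the same medium with insulin, transferrin and selenium, so every group, the controls included, was exposed to insulin. Slc25a26 encodes the mitochondrial carrier of S-adenosylmethionine, and the study's title places the work in protein synthesis and mTOR signalling.

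A ribosome carries 1 copy of nearly every ribosomal protein, and the genes for the small (Rps) and large (Rpl) subunits are expressed together and at high levels in growing cells. The acidic stalk proteins Rplp0, Rplp1 and Rplp2 recruit translation factors to the large subunit. Most mRNAs of this family begin with a cytosine and a run of pyrimidines, the terminal oligopyrimidine (TOP) motif, through which mTORC1 and Larp1 control their translation and stability. A few members have a paralog with a tissue-restricted or little understood role, such as Rpl3l of striated muscle. The family has many processed pseudogenes, whose sequences are close to those of the parent mRNAs.

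The start of the mRNA is shown first, since the pyrimidine run there is the family's best known shared feature. RefSeq (GRCr8) gave a window of 250 bases before to 50 bases after the annotated start for 69 of the 89 members. A C followed by at least 7 pyrimidines (C or T), on the sense strand and within 5 bases before to 12 bases after the annotated start, was present in 30 of the 69 (43.5%), against 3.78% of 13698 promoters of genes in the table. The windows below hold 10 bases before and 20 bases from the annotated start, with the run in capitals, and are shown because they set a stalk protein and classical members with the run beside Rpl3 and the paralogs Rpl22l1 and Rpl7l1, in which no run was found. The run was found in none of the 8 paralog windows.
Rplp0 (chr12:46718371-46718400, minus strand): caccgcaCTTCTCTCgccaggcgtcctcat
Rps27 (chr2:177964587-177964616, minus strand): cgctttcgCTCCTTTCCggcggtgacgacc
Rpl22 (chr5:168117951-168117980, plus strand): gcgccCCCCTCCCTTTCTgcctcctctgcc
Rpl3 (chr7:113507971-113508000, minus strand): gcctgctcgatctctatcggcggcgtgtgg
Rpl22l1 (chr2:113683186-113683215, plus strand): gtggatatccggttccgagttgcgcagcgc
Rpl7l1 (chr9:21695708-21695737, plus strand): cagatgcattgtgggaagcctttaactcgt
A window without the run says only that these letters were not found at the annotated start.

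Farther upstream, TCTCGCGAGA, which reads the same on both strands, was found in 8 of the 69 (11.6%) and in 0.81% of all promoters. It was taken because no other self-complementary 10-base word was in as many member windows, so this choice itself sets the difference. The letters CCGGAA were found on either strand in 34 (49.3%) against 23.7%. The letters TATAAA were found in 11.6% of member windows and 8.56% of all. Rps6, the ribosomal protein that S6 kinase phosphorylates, held both of the first motifs, which are in capitals in this stretch from 157 to 58 bases before its start.
Rps6 (chr5:106420598-106420697, minus strand): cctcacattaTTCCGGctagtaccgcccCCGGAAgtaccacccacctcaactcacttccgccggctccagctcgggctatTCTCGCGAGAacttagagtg

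Libraries held 24770972 to 28709049 estimated counts. Slc25a26 was at 29.3 to 33.2 CPM in siNeg and at 14.7 to 15.8 CPM in siSlc25a26, a fall of 1.08 on the log2 scale. It was at 86.2 to 113 CPM in siNeg PE and the libraries labelled siSlc25a26 PE held 98.8 to 106 CPM, so the targeted mRNA was not lower there and does not check that label. Cardiomyocyte markers summed to 21612 to 27696 CPM over all libraries. Fibroblast markers summed to 21441 to 23585 CPM in siNeg, 11626 to 12095 in siNeg PE, 12474 to 13997 in siSlc25a26 and 8710 to 9478 in the libraries labelled siSlc25a26 PE, and none of the 10 was at 0. Macrophage markers (5 genes) summed to 23.7 to 29.3 CPM in siNeg and 11.9 to 15.9 CPM in the other groups. Of 10 interferon-induced genes, 9 were higher in both comparisons of siSlc25a26 with siNeg, with medians of 6.69 without PE and 6.49 under PE on the log2 scale. The part of these other cell types and of the interferon genes in the results below was not tested, and fewer cells of a type and less RNA per cell cannot be told apart in bulk RNA.

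Many members have near-identical entries in the table, and the division of counts among them differed between libraries. RefSeq names 66 further entries of the table as copies of 39 ribosomal protein genes, and 37 of these carry pseudogene names. These 66 entries took 3.80% to 4.06% of the family's counts in 8 libraries, namely all of siNeg and siNeg PE and replicates 1 and 2 of siSlc25a26. They took 4.86% to 5.02% in the other 4, namely replicate 3 of siSlc25a26 and the 3 libraries labelled siSlc25a26 PE. Replicate 3 of siSlc25a26 thus stood apart from its own group in how family reads were divided, and values without it are given where leaving it out changed a call of a named member or moved a called value or count by over 1.5 times. Values were not whole in all 12 libraries for 46 members and whole in all 12 (within 0.005) for 20. Counts of each gene and its copies were therefore also summed, which gave 77 ribosomal protein genes, all of which were tested.

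Levels were high for most of the family. On the FPKM scale, which is per length, 76 of 89 members had a mean above 100 over the 12 libraries and 26 had a mean above 1000. The highest were Rps2 at 2232 ± 448, Rpl41, the shortest protein of the family, at 2079 ± 327 and Rplp0 at 1975 ± 413 FPKM (SD, n = 12). They differed from each other by less than this SD. It includes the differences between the 4 groups, so it does not test their order. The lowest were Rpl3l at 0.0858 ± 0.0401, Rpl39 at 0.17 ± 0.405 and Rps20 at 2.35 ± 5.44 FPKM. Rpl39 and Rps20 are constitutive ribosomal proteins, and entries that RefSeq names as their copies held far more reads. The entry RefSeq names Rps20-ps10 held 539 to 663 CPM in siNeg, and Rps20 itself 0 to 7.93 CPM. With its copies summed, Rps20 stood at 539 to 673 CPM in siNeg and Rpl39 at 195 to 262 CPM. Rpl3l, which replaces Rpl3 in adult striated muscle, had 0.0341 to 0.184 CPM in all 12 libraries, against 523 to 911 CPM for Rpl3, so it was too low to test.

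The 89 members together took 4.35% to 5.10% of all counts in siNeg, 3.83% to 4.37% in siNeg PE, 3.28% to 3.31% in siSlc25a26 and 2.84% to 2.999% in the libraries labelled siSlc25a26 PE. The siSlc25a26 libraries, with or without PE, lay below every siNeg and siNeg PE library. Replicate 3 was the lowest library of its group in siNeg, in siNeg PE and among those labelled siSlc25a26 PE. With copies summed, the median gene of replicate 3 of siNeg PE was at -0.29 relative to siNeg on the log2 scale, while replicates 1 and 2 were at -0.05 and -0.06.

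**Figure D1:**
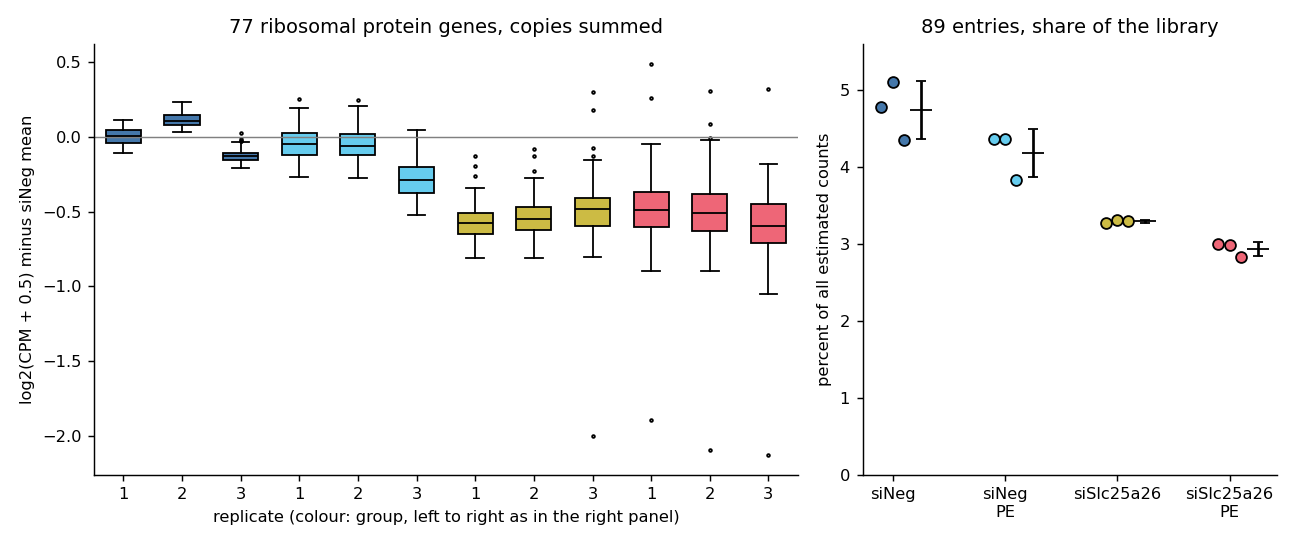
Left, log2(CPM + 0.5) of 77 ribosomal protein genes (copies summed) minus each gene's siNeg mean, as a box per library (line, median; box, quartiles; whiskers, 1.5 times the quartile range; dots, genes outside), coloured by group in the order of the right panel; right, percent of all estimated counts in the 89 entries, 1 point per library with mean and SD (n = 3). The 6 siSlc25a26 libraries have medians from -0.60 to -0.48 and lie below the siNeg libraries in both panels, and the dots near -2 in 4 of them are Rplp1.

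Almost the whole family was lower after transfection with siSlc25a26 without PE, by a similar amount for most genes. Of 86 members tested, 73 fell and 2 rose, where 21.7% of 13829 genes fell and 23.3% rose over the whole table (edgeR, adjusted p under 0.05). The median member was at -0.54 on the log2 scale, a 1.46-fold difference, and the median of all genes was 0.01. The fall exceeded 1.5-fold in 32 members, against 7.2% of all genes, and in 73 members every siSlc25a26 library was below every siNeg library, against 25.3%. Small subunit members had a median of -0.61 (29 of 30 fell), large subunit members a median of -0.54 (38 of 42 fell), and the 3 stalk genes fell. With copies summed 73 of 77 genes fell and none rose, where 21.8% of all genes fell, and the exceptions Rpl6, Rpl38, Rps27a and Rpl36a lay between -0.25 and -0.02 without passing the test. Without replicate 3 of siSlc25a26 the count with copies summed was 74, with a median of -0.59. With entries as deposited and without that replicate, Rpl38 (-0.35) and Rps27a (-0.50) passed the test and Rpl6 and Rpl36a did not. Of the 10 fibroblast markers 8 fell and 1 rose, with a median of -0.74.

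Rplp0, a core of the stalk, was at 2612, 2539 and 2217 CPM in siNeg and at 1659, 1598 and 1592 CPM in siSlc25a26. The groups did not overlap, and the log2 fold change was -0.63 ± 0.07 (SE, adjusted p = 0.00014 by edgeR). Rps6 was at 879, 1026 and 874 CPM in siNeg and at 567, 614 and 658 CPM in siSlc25a26, also without overlap, with a log2 fold change of -0.62 ± 0.08. Rpsa, a small subunit protein also known as the laminin receptor, changed by -0.64 ± 0.07 on the log2 scale. Rpl5, which with Rpl11 and 5S RNA binds Mdm2, changed by -0.49 ± 0.06, from 473, 539 and 493 CPM to 353, 363 and 373 CPM. Rpl11 changed least of these, from 455, 499 and 398 CPM to 376, 385 and 405 CPM with overlapping groups (log2 fold change -0.24 ± 0.08, adjusted p = 0.043 by edgeR), and without replicate 3 of siSlc25a26 its value of -0.27 did not pass the test.

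Rps19, a small subunit protein mutated in Diamond-Blackfan anaemia, was among the 3 most lowered members in both comparisons of siSlc25a26 with siNeg. It was at 620, 637 and 540 CPM in siNeg and at 335, 336 and 352 CPM in siSlc25a26, a log2 fold change of -0.84 ± 0.07 (adjusted p = 2.7e-05 by edgeR), or -0.81 with copies summed. The second entry with the symbol Rps19 rose from 10.8, 9.84 and 10.1 CPM to 12.0, 14.9 and 14.8 CPM (log2 fold change 0.41 ± 0.11, or 0.36 and not past the test without replicate 3), a small level beside that of Rps19. Rpl3, which lies at the peptidyl transferase centre, fell from 890, 911 and 785 CPM to 523, 535 and 525 CPM (-0.73 ± 0.07 on the log2 scale). Its values were whole in every library.

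**Figure D2:**
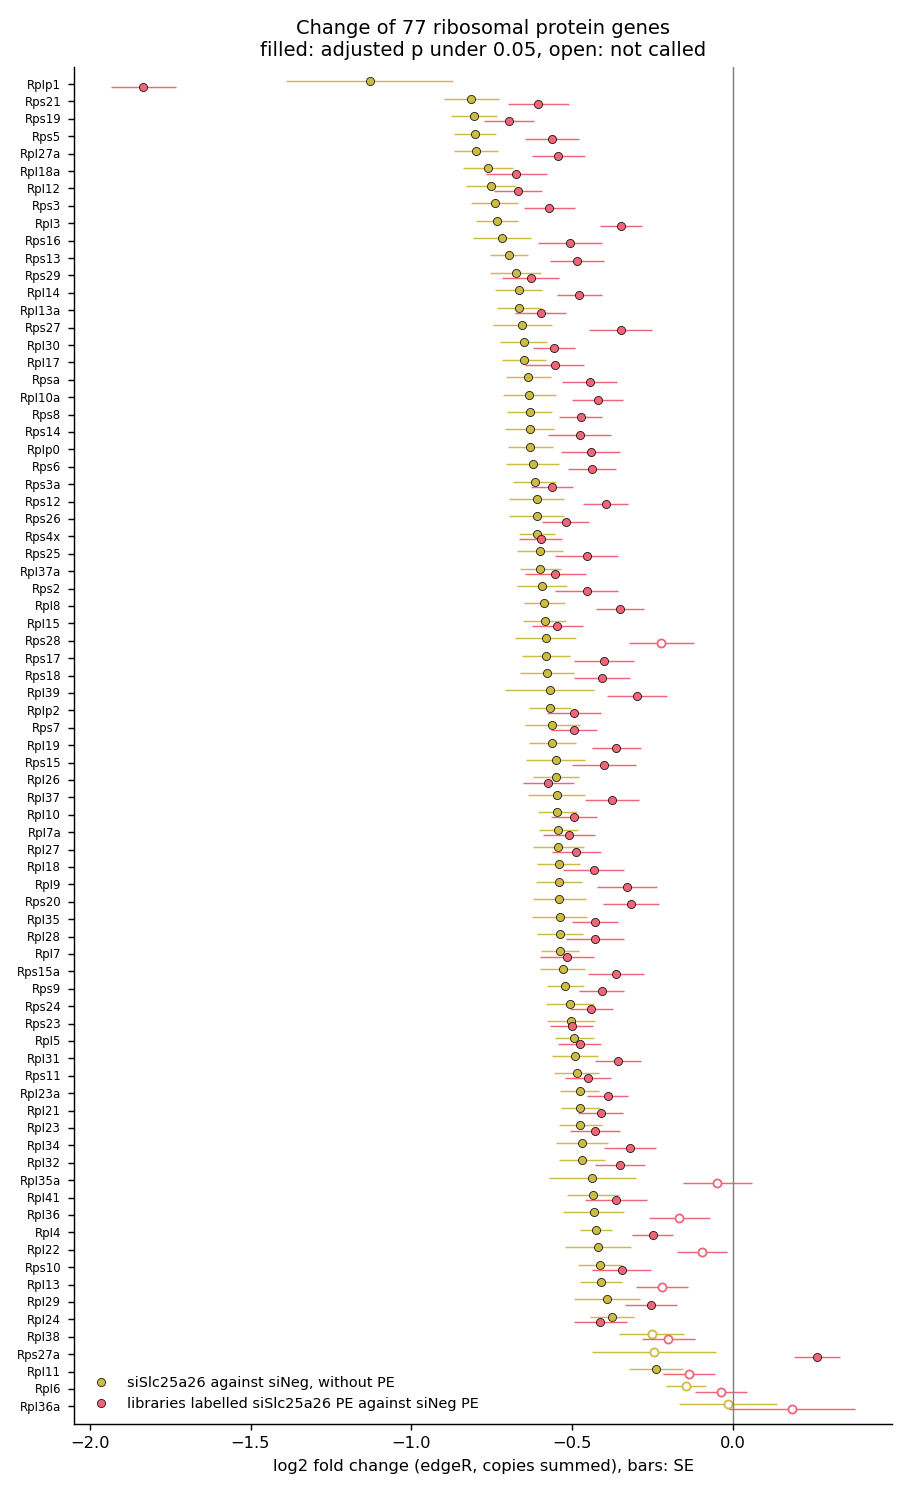
Log2 fold change (x axis) of each of 77 ribosomal protein genes (y axis, copies summed, ordered by the first comparison) for siSlc25a26 against siNeg without PE and for the libraries labelled siSlc25a26 PE against siNeg PE, with SE bars; filled points passed an adjusted p of 0.05. All 77 points without PE lie left of 0 and 75 of 77 do so under PE, with Rplp1 far to the left and Rps27a to the right under PE.

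The libraries labelled siSlc25a26 PE were compared with siNeg PE, a comparison that shares no library with the one above. Of 86 members tested, 64 were lower and 4 higher, where 20.1% of 13671 genes were lower and 20.1% higher, and the median member was at -0.41 (all genes, 0.00). All 64 of these, 100% of the second list, were among the 73 that fell without PE (87.7% of the first), and 12.6% of the 13508 genes tested in both were lower in both. The fitted value was less negative than without PE, or positive, in 81 of 86 members, while the test of the difference itself (the interaction term below) passed in 2. The downward difference from siNeg PE exceeded 1.5-fold in 8 members, against 8.1% of all genes. Rps4x, encoded on the X chromosome, differed by nearly the same amount in both comparisons, by -0.61 ± 0.05 and -0.58 ± 0.07 on the log2 scale. It was at 910, 891 and 799 CPM in siNeg PE and at 595, 585 and 570 CPM among those labelled siSlc25a26 PE. Rps19 differed by -0.76 ± 0.08 and its second entry by 1.24 ± 0.18, Rps6 by -0.42 ± 0.08 and Rplp0 by -0.43 ± 0.09 on the log2 scale. With copies summed 67 of 77 genes were lower, where 21.2% of all genes were lower, and Rps27a alone was higher (18.9% of all genes). Of 9 fibroblast markers tested, 8 were lower and 1 higher, with a median of -0.44.

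Rps27a, which is made as a fusion with ubiquitin, departed from the family in replicate 3 of siSlc25a26 and in the libraries labelled siSlc25a26 PE. These are the 4 libraries in which copy entries took the larger share of family counts. Whether the level of Rps27a is linked to that division was not tested. It was at 132, 167 and 127 CPM in siNeg and at 147, 152 and 131 CPM in siNeg PE. In siSlc25a26 it was at 88.2, 117 and 161 CPM, with replicate 3 apart from the others (log2 fold change against siNeg -0.24 ± 0.19, not past the test, or -0.50 ± 0.15 and lower without replicate 3), and in the libraries labelled siSlc25a26 PE it was at 171, 176 and 178 CPM, above every siNeg PE library. The log2 fold change against siNeg PE was 0.28 ± 0.07 (adjusted p = 0.014 by edgeR). It did not pass the test when replicate 2 of siSlc25a26 PE was left out or when all 12 libraries shared 1 fit. Outside the symbol rule, Fau, a fusion that yields a small subunit protein, moved with the family (-0.55 ± 0.08 without PE and -0.48 ± 0.11 under PE on the log2 scale). So did Rack1, a scaffold on the small subunit (-0.64 ± 0.07 and -0.50 ± 0.08).

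Rplp1 and Rps14 had the largest fitted falls of all members. For each, another entry was above its siNeg level in replicate 3 of siSlc25a26 and in the libraries labelled siSlc25a26 PE. In replicates 1 and 2 of siSlc25a26 that entry was below its siNeg level, as the gene was. Rps14 was at 517, 538 and 442 CPM in siNeg, at 389, 393 and 327 CPM in siNeg PE, at 304, 336 and 166 CPM in siSlc25a26 and at 149, 119 and 112 CPM among those labelled siSlc25a26 PE. Its log2 fold changes were -0.92 ± 0.22 without PE (-0.67 ± 0.10 without replicate 3) and -1.56 ± 0.11 under PE. The entry RefSeq names Rps14-ps7 was at 112 to 134 CPM in siNeg, at 93.8 and 74.5 CPM in replicates 1 and 2 of siSlc25a26 and at 224 to 261 CPM in replicate 3 and in the libraries labelled siSlc25a26 PE. Summed, they were at 398, 411 and 423 CPM in siSlc25a26 and at 391, 380 and 337 CPM among those labelled siSlc25a26 PE. The log2 fold changes of Rps14 with copies summed were -0.63 ± 0.08 and -0.48 ± 0.10, close to the family's medians.

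Rplp1 was at 981, 996 and 853 CPM in siNeg, at 881, 827 and 702 CPM in siNeg PE, at 538, 545 and 235 CPM in siSlc25a26 and at 252, 219 and 213 CPM among those labelled siSlc25a26 PE. Replicate 3 of siSlc25a26 again lay with the libraries labelled siSlc25a26 PE. The log2 fold changes were -1.13 ± 0.26 without PE (also -1.13 with the copies that RefSeq names summed, and -0.83 when replicate 3 was left out too) and -1.83 ± 0.10 under PE. The entry LOC100360522, which RefSeq lists without a gene name, was picked after its values were seen. It was at 189 to 257 CPM in siNeg and at 198 to 276 CPM in siNeg PE. In siSlc25a26 it was at 144 and 141 CPM in replicates 1 and 2 and at 425 CPM in replicate 3. The libraries labelled siSlc25a26 PE held 433 to 481 CPM of it. The sum of Rplp1 and this entry was 682, 686 and 659 CPM in siSlc25a26 and 726, 700 and 646 CPM among those labelled siSlc25a26 PE, with log2 ratios of group means of -0.79 without PE and -0.60 under PE. Whether the entries share reads was not tested. Rplp2, the partner of Rplp1 in the stalk, changed by -0.57 ± 0.07 and -0.48 ± 0.09 on the log2 scale.

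Rps9 and a second entry moved in opposite directions in 1 library. In the libraries labelled siSlc25a26 PE Rps9 was at 157, 156 and 71.6 CPM, and Rps9l1, whose identifier RefSeq assigns to Rps9, was at 184, 180 and 247 CPM. Their sum was 340, 336 and 319 CPM. Rps9 with copies summed fell in both comparisons, while the Rps9 entry alone did not pass the test under PE (adjusted p = 0.061 by edgeR).

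**Figure D3:**
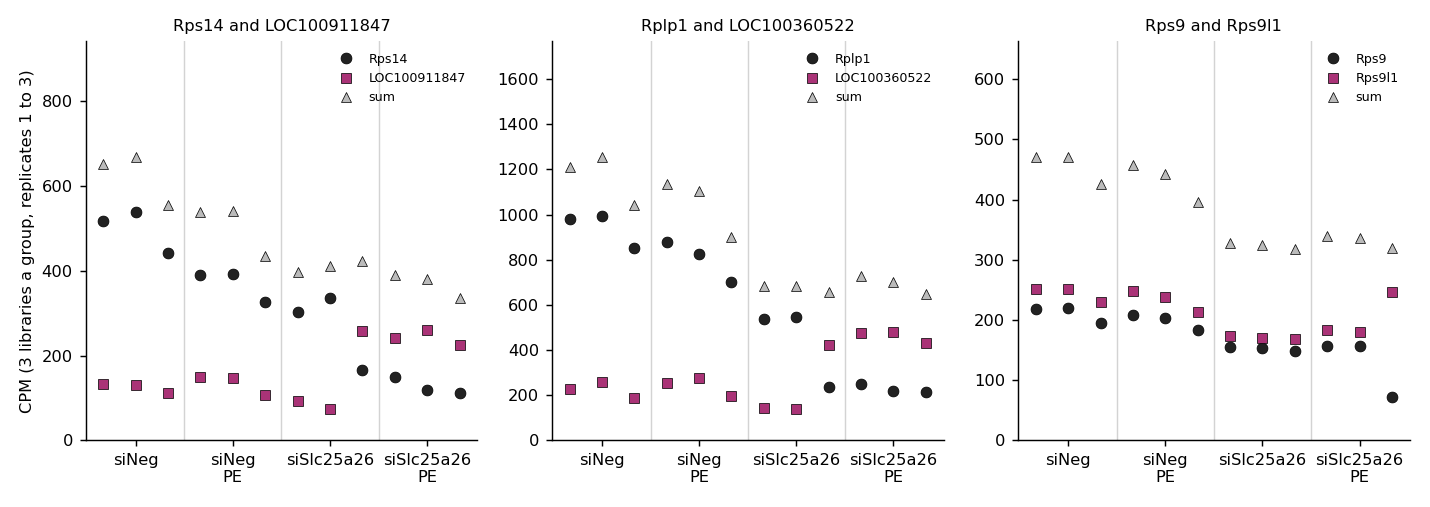
CPM in each library (y axis, linear, 3 points a group in the order replicate 1 to 3) of Rps14, Rplp1 and Rps9 (circles), of a second entry (squares) and of their sum (triangles). In replicate 3 of siSlc25a26 and in the libraries labelled siSlc25a26 PE the second entry lies above Rps14 or Rplp1, whereas the sums of the siSlc25a26 libraries stay between 337 and 423 CPM for Rps14 and between 646 and 726 CPM for Rplp1.

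The paralogs are set beside their classical partners. Of 7 paralogs tested, 1 fell and 1 rose without PE, where 21.7% of all genes fell and 23.3% rose, and 2 were higher under PE, where 20.1% of all genes were. Rpl7l1, a nucleolar relative of Rpl7 that takes part in ribosome assembly, was at 117, 113 and 118 CPM in siNeg and at 139, 143 and 138 CPM in siSlc25a26, with no overlap. The log2 fold change was 0.25 ± 0.04 (adjusted p = 0.0019 by edgeR), while Rpl7 changed by -0.54 ± 0.06. Under PE Rpl7l1 was higher by 0.31 ± 0.06 on the log2 scale and Rpl7 differed by -0.50 ± 0.08. Rpl7l1 values were whole in every library.

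Rps27l, a p53-induced relative of Rps27, was at 64.6, 61.2 and 57.5 CPM in siNeg PE and at 79.3, 77.7 and 73.0 CPM among those labelled siSlc25a26 PE, higher by 0.32 ± 0.07 on the log2 scale (adjusted p = 0.0073 by edgeR). Rps27 differed by -0.33 ± 0.10 in the same libraries. Without PE, Rps27 changed by -0.65 ± 0.09, and Rps27l had a log2 fold change of 0.09 ± 0.07 that did not pass the test.

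Rpl22l1, which substitutes for Rpl22, was the paralog that fell without PE. It went from 37.7, 44.6 and 34.7 CPM to 26.8, 27.5 and 31.0 CPM (log2 fold change -0.48 ± 0.11), beside -0.42 ± 0.10 for Rpl22. Under PE neither passed the test, with values of -0.02 ± 0.09 for Rpl22l1 and -0.08 ± 0.08 for Rpl22. Rpl36al, an intronless relative of Rpl36a, was at 118 to 131 CPM in siNeg and at 118 to 129 CPM in siSlc25a26, and its log2 fold change was -0.05 ± 0.06. Rpl36a itself held 5.29 to 9.40 CPM in all libraries. Rpl10l, a testis paralog of Rpl10, held 15.4 to 22.6 CPM and Rps4y2 11.8 to 17.5 CPM, and neither passed the test in these comparisons, whereas Rpl10 and Rps4x fell. Rpl39l was at 1.23 to 2.25 CPM.

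**Figure D4:**
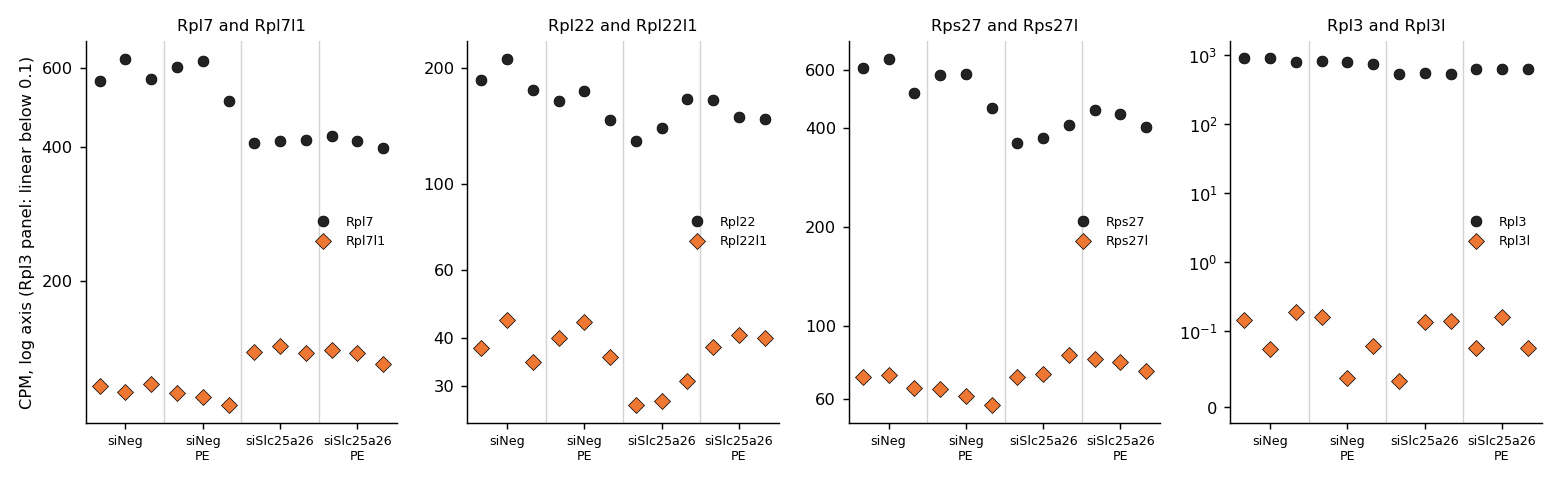
CPM (y axis, log scale; in the last panel linear below 0.1) in each library, 3 points a group in the order replicate 1 to 3, of a classical gene (circles) and its paralog (diamonds). Rpl7l1 lies higher in the 6 siSlc25a26 libraries (130 to 143 CPM) than in the 6 siNeg libraries (105 to 118 CPM) while Rpl7 lies lower (398 to 422 against 507 to 630 CPM), and Rpl3l stays below 0.2 CPM in every library.

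PE in siNeg cells moved the family little. Of 86 members tested, 16 fell and Rpl36al rose, where 24.3% of 13719 genes fell and 25.2% rose. None passed 1.5-fold (8.24% of all genes fell by that much), the median member was at -0.14 and that of all genes at 0.00, and 75 of 86 values were negative. The largest falls were those of Rps14 (-0.45 ± 0.09, or -0.32 ± 0.10 with copies summed), Rpl7a (-0.35 ± 0.07) and Rps19 (-0.29 ± 0.08) on the log2 scale. Rpl7a was at 963, 979 and 871 CPM in siNeg and at 780, 776 and 675 CPM in siNeg PE, without overlap. Rpl13a, known from the interferon-gamma-activated translation inhibitor complex, changed by -0.26 ± 0.08. Rpl36al rose from 124, 131 and 118 CPM to 157, 158 and 132 CPM (0.25 ± 0.08). The count of 16 dropped to 2 without replicate 1 or 2 of siNeg or replicate 2 or 3 of siNeg PE, and was 33 without replicate 3 of siNeg. It thus depends on which libraries are used. It was larger still with a replicate block, as given in the last section, so the number of members called here is not settled.

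PE within siSlc25a26, in libraries that the comparison above does not use, gave 14 members higher and 10 lower of 87 tested, where 26.4% of 13776 genes were higher and 26% lower. The median member was at 0.04 and all genes at 0.00. Rps14 (-1.08 ± 0.23) and Rplp1 (-0.94 ± 0.26) were lowest, and Rps14 with copies summed was at -0.14 ± 0.06 and did not pass the test. The Rplp1 call was lost without replicate 1 or 2 of siSlc25a26 or replicate 2 of siSlc25a26 PE. Rpl7a was lower here too (-0.29 ± 0.06). Rpl22l1 rose from 26.8, 27.5 and 31.0 CPM to 37.9, 40.8 and 39.97 CPM (0.49 ± 0.07, adjusted p = 0.0006 by edgeR), Rpl36al by 0.35 ± 0.05 and the second Rps19 entry by 0.63 ± 0.12. Rps27a was higher by 0.53 ± 0.17, a call that several alternatives did not keep. Without replicate 3 of siSlc25a26, 20 members were higher and 9 lower, where 22.4% of all genes were higher and 22.9% lower. Rps14 was then at -1.33, Rplp1 at -1.24 and Rps27a at 0.78, and Rpl22 passed the test at 0.20. Larger rises were fitted for Rpl35a (1.29 ± 0.24) and for the Rps20 entry (7.73 ± 2.47), whose copies held far more reads. With copies summed, values without replicate 3 ran from -1.23 to 0.78. On the FPKM scale, where the median of all genes was itself at -0.13, 4 members were higher and 40 lower. There 7668 of 13776 genes were called and only 26.3% of the called genes were higher, so most of the table leaned the same way. The balance of directions in this comparison thus depends on the scaling.

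The effect of PE differed between siSlc25a26 and siNeg, or equally the effect of siSlc25a26 differed with PE, in 2 of 87 members, both upward with all libraries, where 5.49% of 14097 genes differed upward and 5.72% downward (edgeR interaction term over 12 libraries). The median member was at 0.12 and all genes at -0.05. Rpl3 changed by -0.16 ± 0.07 under PE in siNeg and by 0.25 ± 0.04 in siSlc25a26, from 523, 535 and 525 CPM to 615, 621 and 630 CPM, a difference of 0.38 ± 0.09 (adjusted p = 0.014 by edgeR). The second Rps19 entry differed by 0.81 ± 0.23. Without replicate 3 of siSlc25a26 the count was 5 upward and 2 downward, where 4.74% and 4.06% of all genes were called. Rpl3 (0.39), Rpl22 (0.44), Rps27a (0.76), Rpl35a (1.47) and Rps10l1 (0.69) were then upward, Rplp1 (-1.01) and Rps14 (-0.90) downward, and the second Rps19 entry was not called. Rpl35a and Rps10l1 were named after their values were seen. In this fit the 66 copy entries took 3.80% and 3.94% of family counts in siSlc25a26. They took 4.86% to 4.98% in the libraries labelled siSlc25a26 PE, so PE and the division of counts cannot be told apart. With copies summed over all 12 libraries, 1 gene was upward and 0 downward, and large subunit genes reached at most 0.39. Copies were not summed in this test without replicate 3.

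Members with the pyrimidine run at their start had a median log2 fold change of -0.56 without PE (29 of 30 fell) and those without it -0.49 (27 of 37 fell), where 21.7% of all genes fell. Under PE the medians were -0.41 and -0.35. The members with no run include the paralogs and copies, and the annotated start can lie away from the start used in these cells.

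Other genes whose mRNAs carry a TOP motif moved in the same direction in part. Of 24 tested, 16 fell and none rose without PE, where 21.7% of all genes fell and 23.3% rose, with a median of -0.39 against 0.01 for all genes. Under PE 13 were lower, where 20.1% of all genes were, and Ipo5, an importin that carries ribosomal proteins into the nucleus, was higher. The elongation factor gene Eef1b2 changed by -0.85, Eef1a1 by -0.78 and Eef2 by -0.71 on the log2 scale without PE, and Eef1a1 stood at 5899 ± 85.2 CPM in siNeg and 3497 ± 39.4 CPM in siSlc25a26 (SD, n = 3). Vim, whose mRNA also carries the motif and which is abundant in fibroblasts, changed by -0.71. Npm1, Btf3, Hnrnpa1 and Nap1l1 lay between -0.17 and -0.03 and did not pass the test.

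Genes of the mTORC1 pathway and of TOP control moved in both directions. Of 16 tested, 5 rose and 2 fell without PE, and 5 were higher and 2 lower under PE, where 23.3% of all genes rose and 21.7% fell without PE, and 20.1% were higher and 20.1% lower under PE. Larp1, which binds TOP mRNAs, rose by 0.43 without PE (149 ± 9.41 CPM in siNeg and 204 ± 7.76 CPM in siSlc25a26) and was higher by 0.35 under PE on the log2 scale. Rps6kb1, an S6 kinase, rose by 0.74 without PE. Among inhibitors of mTORC1, Tsc2 changed by -0.44 without PE and Deptor differed by -0.82 under PE, while Tsc1, the partner of Tsc2, was higher by 0.18 without PE and by 0.25 under PE. Of the chaperones that escort single ribosomal proteins, 1 of 7 tested rose without PE and 3 of 8 were higher under PE, with none lower, where 23.3% and 20.1% of all genes were higher. The largest of these differences, that of the Rps26 chaperone gene Tsr2, rested on 0.252 ± 0.437 CPM in siNeg PE against 2.24 ± 1.44 CPM among the libraries labelled siSlc25a26 PE. Ltv1, an assembly factor of the small subunit, rose by 0.21 and 0.24, and Rps19bp1, which the symbol rule brought in, changed by -0.21 ± 0.06 without PE, a call lost without replicate 3 of siSlc25a26 at the same value, and by -0.15 ± 0.09 under PE without passing the test in the second.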

How the data were processed

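Per gene, the authors deposited estimated counts, not normalised, of which 20.8% to 21.9% per library were not whole numbers, and, in a second table, FPKM values, which are per gene length and per library total. Per the submitters' processing notes HISAT, Bowtie2 and the rat build Rnor_6.0 were used. The counting program and strandedness are not given in the sources used here. Estimated counts were rounded and tested with edgeR 4.0.16 in R 4.3.3 (TMM scaling, filterByExpr, quasi-likelihood F-test), with Benjamini-Hochberg adjustment over all genes tested. Each comparison used its own 6 libraries, and the difference of PE effects used all 12. A member was called at an adjusted p-value under 0.05. Levels are given as CPM (counts scaled by library size and TMM factor), and as FPKM where genes are compared with each other. Libraries were grouped and numbered from the sample labels. Since nothing states that replicates were separate cell preparations, p-values measure only the spread between these libraries, which may be technical.

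The 89 members were taken by gene symbol, and 86 matched a RefSeq record (GRCr8, used for names and promoter sequences). Named with values were paralogs and their partners, members with a role that stands apart, the 3 highest and 3 lowest by FPKM, and the 3 most raised and 3 most lowered called members of each comparison, with the called genes of largest change from each other list. The members and lists were chosen with earlier results of these data known. Alternatives were a 1.5-fold threshold, DESeq2 1.42.0, limma 3.58.1 (voom, log2(FPKM + 1) and log2(FPKM + 0.1)), DESeq2 size factors in edgeR, no filter, at least 10 counts in every library, a replicate block, 1 fit over all 12 libraries and leaving out each library. Summing the entries that RefSeq names as copies of a gene was added after the values were seen. Tested on simulated data drawn for PE in siNeg, with 200 genes changed among about 13700, the procedure recovered 86 genes at 1.25-fold, 183 at 1.5-fold and 195 at 2-fold. False calls numbered 3, 9 and 2. Counts were drawn independently with the same dispersion of 0.005 for every gene. No replicate effect or division of reads among copies was simulated, so recovery in the real libraries may differ.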

Additional observations from a re-analysis of the deposited data

Results flagged for a closer look

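The effect of PE on Rpl3 differed between siSlc25a26 and siNeg by 0.38 on the log2 scale in a test of the difference itself (edgeR interaction term, adjusted p = 0.014). At 1.31-fold it did not pass the 1.5-fold threshold, and it kept its call in the other alternatives run. The second Rps19 entry differed by 0.81 in the same test, but each of 9 settings that left out 1 library gave values from 0.69 to 0.87 that did not pass, and at 7.47 to 24.8 CPM over all libraries it is a low entry that shares its symbol with Rps19.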

How the results depend on the processing

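The counts of members lower without PE (73) and under PE (64) stayed within 1.5 times under DESeq2, limma-voom, DESeq2 size factors, both FPKM scales, both filters, the replicate block and 1 fit over 12 libraries. Leaving out 1 library gave 69 to 75 and 53 to 69, and 1 to 3 and 3 to 7 higher. For PE in siNeg it gave 2 to 33 lower and 0 to 2 higher, for PE in siSlc25a26 6 to 14 lower and 9 to 21 higher, and for the difference of PE effects 0 to 2 lower and 1 to 5 higher. A 1.5-fold threshold left 0 lower and 0 higher for PE in siNeg, 32 and 0 for siSlc25a26 without PE, 8 and 1 under PE, 2 and 1 for PE in siSlc25a26, and 1 higher for the difference. Summing copies left 1 higher without PE and 1 for the difference.

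The deviations of same-numbered libraries from their group means had correlations from -0.09 to 0.22. These were not above 0.1 in every pair of any comparison, so the block was kept as an alternative. They were 0.14, 0.01 and 0.22 for PE in siNeg and 0.21, 0.03 and 0.17 for siSlc25a26 under PE. In the other comparisons they ran from -0.09 to 0.06. An effect shared by same-numbered libraries is thus not shown to be absent. With the replicate block, 54 of 86 members were lower and 3 higher for PE in siNeg. In that fit 8462 of 13719 genes were called, and 51.4% of the called genes were higher. The block moved no other count of members by more than 1.5 times.

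On log2(FPKM + 0.1), 25 were lower for PE in siNeg, where 6733 of 13719 genes were called and 43.1% of the called genes were higher. On both FPKM scales PE in siSlc25a26 gave 40 lower and 4 higher, and Rpl7 (-0.17) and Rpsa (-0.00688) changed sign. The median of all genes there was -0.13 with a pseudocount of 1 and -0.17 with 0.1. With these pseudocounts 7668 and 7669 of 13776 genes were called, and 26.3% of the called genes were higher.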
